A study of Rattus norvegicus with 12 samples.

Results

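The transcripts of 10 circadian clock genes were measured in rat thalamus and rostral ventral medulla (RVM). The genes were the 3 period genes Per1, Per2 and Per3, the cryptochromes Cry1 and Cry2, the REV-ERB receptors Nr1d1 and Nr1d2, the output regulators Dbp and Hlf, and the activator Npas2. They were chosen by name from the 34525 genes of the deposited table, in which each name had 1 entry.

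The mammalian clock is a feedback loop of transcription. CLOCK, or its relative NPAS2, pairs with BMAL1 (the product of Arntl) and binds E-boxes in the promoters of the Per, Cry and Nr1d genes and of Dbp. The PER and CRY proteins return to the nucleus and inhibit that pair, the REV-ERB receptors repress Arntl, and DBP and HLF bind D-boxes in clock and output genes. The master clock lies in the suprachiasmatic nucleus of the hypothalamus, and other brain regions, thalamus included, carry the same loop with a phase and strength of their own. Per1 is also induced acutely by neuronal activity and by glucocorticoids.

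The series addresses chronic orofacial pain. The thalamus relays sensory signals to the cortex, and the RVM is a brainstem region whose descending projections raise or lower pain signals. Each region was represented by 3 control libraries, labelled 0.9% NS and called saline here, and 3 libraries labelled CFA, making 12 libraries in 4 groups. Not given in the sources used here are strain, age, sex, the dose and site of CFA, the interval after it, the time of day and lighting at sampling, or whether the libraries of a group came from separate animals, so the p-values measure the spread between these samples, which may be technical. Nor is it given whether thalamus and RVM libraries came from the same rats, and the fits as reported treat them as unpaired. The extraction text in the labels speaks of retinas, whereas the tissue labels name thalamus and RVM. Each library held 14.94 to 19.24 M reads, and a clock gene was represented by 79 to 3024 reads in a library.

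The tissue labels were checked against marker genes. A list of 7 hindbrain markers summed to 0.532 to 1.17 FPKM in the thalamus libraries and to 120 to 159 FPKM in the RVM libraries (FPKM are fragment counts adjusted for the length of the gene and the size of the library). Tcf7l2, which encodes a regulator that marks neurons of the thalamus, ranged from 28.9 to 130 FPKM in thalamus and from 1.31 to 2.10 FPKM in RVM. Of the suprachiasmatic markers, Six6 was at or below 0.0589 FPKM, Prok2 at or below 0.467 FPKM and Lhx1 at or below 1.96 FPKM in every library. Vip was at 9.28 to 29.0 FPKM in thalamus saline, 2.22 to 13.0 FPKM in thalamus CFA and 0.747 to 1.56 FPKM in RVM, and Rgs16, which is also on the thalamic neuron list, was at 45.5 to 137 FPKM in thalamus saline and 15.8 to 70.0 FPKM in thalamus CFA. The 5 measured markers summed to 55.5 to 153 FPKM in thalamus saline, 18.8 to 75.3 FPKM in thalamus CFA and 5.62 to 7.25 FPKM in RVM.

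The 6 thalamus libraries differed among themselves in what they contained. The 10 thalamic neuron markers summed to 588, 1331 and 1037 FPKM in saline libraries 1, 2 and 3 and to 233, 773 and 639 FPKM in CFA libraries 1, 2 and 3. The 10 choroid plexus markers summed to 56.3 to 86.5 FPKM in the saline libraries and 63.1 FPKM in CFA library 3, against 10992 and 2689 FPKM in CFA libraries 1 and 2. The 6 cortical markers reached 296 FPKM in CFA library 1 and 24.4 to 125.5 FPKM in the other thalamus libraries. The 6 hypothalamic markers summed to 107.6 FPKM in saline library 2 and to 4.24 to 20.8 FPKM in the remaining 5. That high sum came mostly from Oxt, at 80.4 FPKM, and Avp, at 21.4 FPKM. Hcrt did not follow, at 9.37, 1.23 and 0.325 FPKM in saline libraries 1, 2 and 3 and 5.28, 8.33 and 0.539 FPKM in CFA. Trh was at 4.30 FPKM in saline library 2 and 4.24 FPKM in CFA library 1, and Pmch was at 0 in every library. Saline library 2 also stood apart in the 4 habenula markers, which summed to 4.84 FPKM there and to 45.4 to 70.5 FPKM in the remaining 5. Of the 10 mural and meningeal markers 0 passed in thalamus between CFA and saline, where 4.11% of all genes tested did. These markers summed to 137 to 153 FPKM in saline and 122 to 325 FPKM in CFA. The collagen gene Col3a1 was at 6.09, 1.84 and 2.93 FPKM in saline and 63.8, 8.25 and 28.0 FPKM in CFA (log2 2.59, limma adjusted p = 0.127). The 10 microglial markers summed to 184 to 217 FPKM in thalamus saline and 946 to 1290 FPKM in thalamus CFA. In RVM they summed to 183 to 235 FPKM in saline and to 1239, 349 and 1054 FPKM in CFA libraries 1, 2 and 3. No marker of the thalamic neuron, choroid plexus, cortical or microglial list was at 0 in every library. In bulk tissue, fewer cells of a type and less RNA per cell cannot be told apart.

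In saline thalamus Dbp had the highest mean of the 10 genes and Per3 the lowest, and in saline RVM Dbp was again highest and Per2 lowest. The means in thalamus saline, with the SD over 3 libraries, were 77.4 ± 2.40 FPKM for Dbp, 45.7 ± 21.0 for Hlf, 39.1 ± 7.43 for Cry2, 26.8 ± 2.97 for Nr1d1, 24.0 ± 2.27 for Nr1d2, 16.4 ± 1.33 for Per1, 14.1 ± 3.20 for Npas2, 7.84 ± 0.126 for Cry1, 5.93 ± 1.5 for Per2 and 3.72 ± 0.210 for Per3. The level of Hlf depends on a listed gene length of 888 bases, the shortest of the 10, where the others had 1702 (Dbp) to 6466 bases (Per3). Of the 10 genes, Hlf had the largest SD relative to its mean and Cry1 the smallest.

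**Figure D1:**
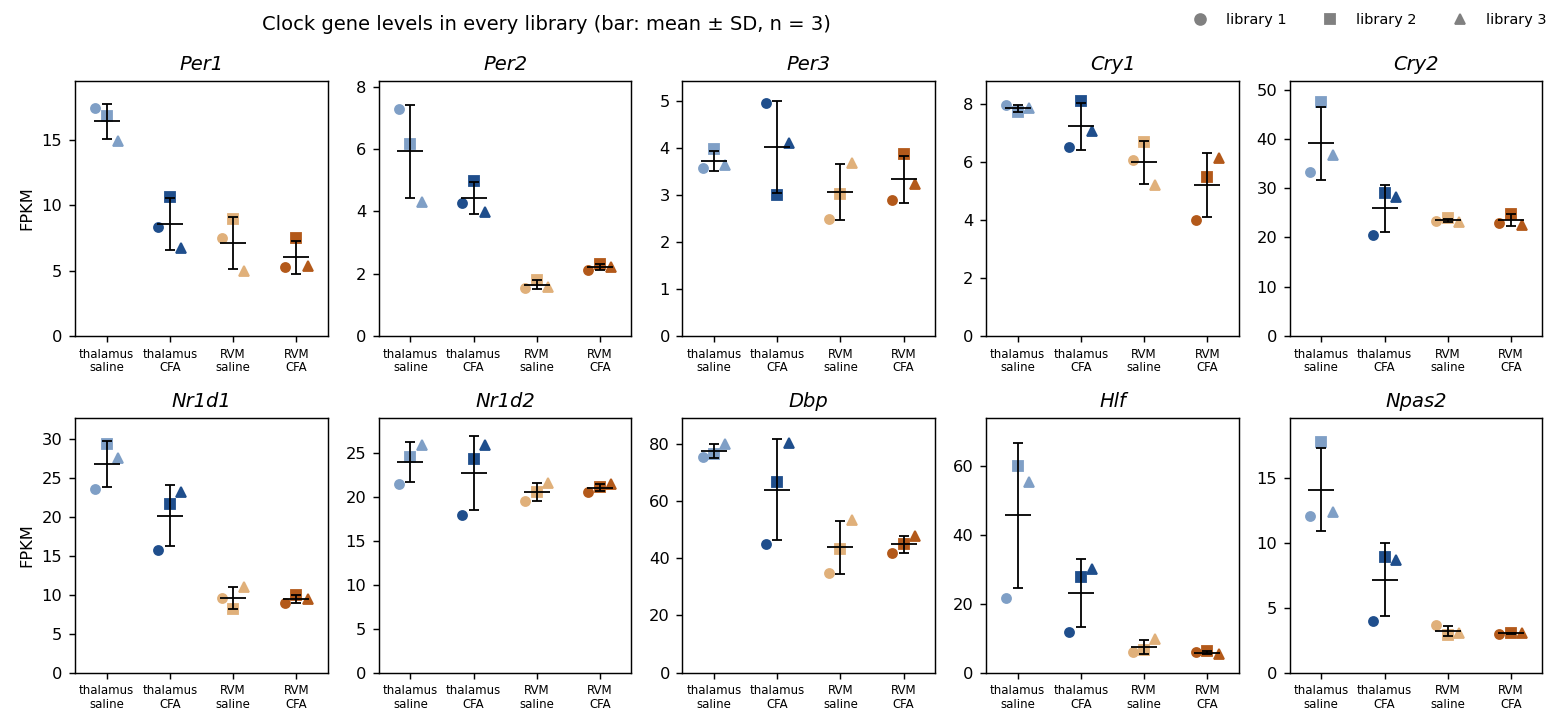
FPKM (y axis, a separate linear scale from 0 for each gene) of the 10 clock genes in every library, grouped along the x axis by region and treatment. Each symbol is 1 library, the horizontal bar is the group mean and the whiskers are the SD over 3 libraries. For Per1 the 3 thalamus saline libraries sit between 15.0 and 17.5 FPKM and the 9 others between 5.01 and 10.7 FPKM.

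The first comparison asked how CFA and saline differed within the thalamus. Per1 was lower in CFA, and it was the only one of the 10 clock genes to pass the test (limma on log2(FPKM + 1), Benjamini-Hochberg adjusted p below 0.05 over 14722 genes). That is 1 of 10, where 4.11% of all genes tested passed in either direction and 0.272% passed as lower. In all, 9 of the 10 log2 changes were negative, with a median of -0.37 against -0.08 for all genes tested. For 4 of the 10 (Per1, Cry2, Nr1d1 and Npas2) every CFA library lay below every saline library, as it did for 16.8% of all genes tested.

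Of the period genes, whose proteins are the inhibitory arm of the loop, Per1 (ENSRNOG00000007387, chromosome 10, 55687050 to 55695994, plus strand; coordinates here and below are those the table lists, of a build not given in the sources used here) stood at 17.5, 16.9 and 15.0 FPKM in thalamus saline and at 8.36, 10.7 and 6.71 FPKM in thalamus CFA. The groups were far apart, with the highest CFA library well below the lowest saline library. The log2 change was -0.88 ± 0.17 (SE; 95% interval -1.28 to -0.49; adjusted p = 0.0396). Per1 showed this direction in all 3 CFA libraries.

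The call for Per1 was close to the threshold. Leaving out saline library 1, 2 or 3 gave log2 changes of -0.84, -0.86 and -0.95 with adjusted p = 0.0934, 0.157 and 0.114. Leaving out CFA library 1 or 3 gave -0.88 and -0.74 with adjusted p = 0.122 and 0.0747, and without CFA library 2 Per1 passed at -1.04 with adjusted p = 0.0250. Without CFA libraries 1 and 2 together, which carried the high choroid plexus markers, the Per1 change was -1.18. That fit rests on CFA library 3 alone, which had the lowest Per1 value of the thalamus libraries. Per1 also missed the threshold with no filter on low genes (adjusted p = 0.0620), with every library rescaled to the same FPKM total (-0.73, adjusted p = 0.0731) and with limma-voom on the recovered reads (-0.78, adjusted p = 0.0693). The direction was lower in CFA in each of these fits and the size stayed between -1.18 and -0.73.

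**Figure D2:**
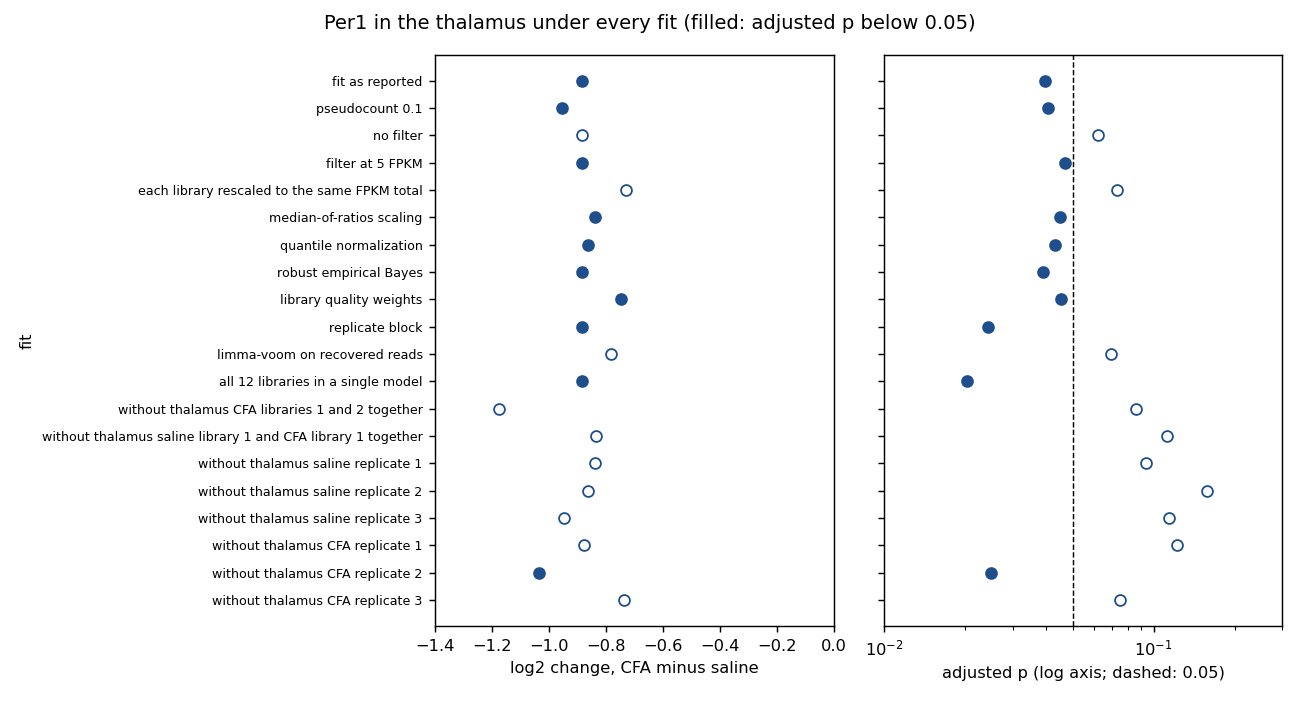
Per1 in thalamus, CFA minus saline, under each fit named on the y axis: the log2 change (left, x axis) and the adjusted p (right, log x axis, dashed line at 0.05). Filled points are below 0.05. The log2 change lies between -1.18 and -0.73 throughout, and the adjusted p lies on both sides of the line, from 0.0203 to 0.157.

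Per2 (ENSRNOG00000020254, chromosome 9, 98555169 to 98597359, minus strand), a partner of PER1 in the inhibitory complex, stood at 7.29, 6.18 and 4.31 FPKM in thalamus saline and at 4.29, 4.99 and 3.99 FPKM in thalamus CFA. The groups overlapped, since saline library 3 lay within the CFA range. The log2 change of Per2 was -0.33 ± 0.19 (SE; adjusted p = 0.327). Per3 (ENSRNOG00000018413, chromosome 5, 168086998 to 168123395, minus strand), the member of the family least needed for rhythm in mice, was at 3.57, 3.96 and 3.63 FPKM in saline and at 4.94, 3.0 and 4.09 FPKM in CFA. Its CFA libraries lay both above and below the saline libraries, and its log2 change was 0.07 ± 0.17 (SE; adjusted p = 0.838). Per3 also turned to -0.05 after quantile normalization and with library quality weights, so no direction can be given for it.

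The cryptochromes repress CLOCK and BMAL1 directly. Cry2 (ENSRNOG00000007478, chromosome 3, 81314149 to 81344110, minus strand) stood at 33.2, 47.5 and 36.6 FPKM in thalamus saline and at 20.4, 29.1 and 28.2 FPKM in thalamus CFA. The groups did not overlap. Cry2 had a log2 change of -0.58 ± 0.19 (SE; 95% interval -1.03 to -0.13), which did not pass after adjustment (unadjusted p = 0.0196, adjusted p = 0.171). Cry1 (ENSRNOG00000006622, chromosome 7, 24534615 to 24634097, plus strand) was at 7.95, 7.70 and 7.86 FPKM in saline and at 6.5, 8.07 and 7.07 FPKM in CFA. CFA library 2 was the highest of the 6, and the log2 change of Cry1 was -0.11 ± 0.11 (SE; adjusted p = 0.553), with the opposite sign (0.04) after rescaling to the same FPKM total.

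Of the REV-ERB receptors, Nr1d1 (ENSRNOG00000009329, chromosome 10, 86683875 to 86690815, minus strand), the main repressor of Arntl, stood at 23.5, 29.3 and 27.6 FPKM in thalamus saline and at 15.7, 21.6 and 23.1 FPKM in thalamus CFA. Its groups lay just apart, with CFA library 3 close below saline library 1. For Nr1d1 the log2 change was -0.41 ± 0.17 (SE; 95% interval -0.81 to -0.01; unadjusted p = 0.0478, adjusted p = 0.230). Nr1d2 (ENSRNOG00000046912, chromosome 15, 8730871 to 8757165, plus strand), the second receptor of the pair, was at 21.4, 24.6 and 25.9 FPKM in saline and at 18.0, 24.4 and 25.9 FPKM in CFA. CFA libraries 2 and 3 fell within the saline range or at its upper edge. The log2 change of Nr1d2 was -0.09 ± 0.16 (SE; adjusted p = 0.776), and it was 0.08 after rescaling to the same FPKM total.

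Dbp and Hlf encode bZIP transcription factors that carry the clock's timing to output genes. Dbp (ENSRNOG00000021027, chromosome 1, 101687855 to 101692846, plus strand) stood at 75.5, 76.6 and 80.1 FPKM in thalamus saline and at 45.1, 66.6 and 80.3 FPKM in thalamus CFA. The saline libraries were close together and the CFA libraries spread from well below them to their top. For Dbp the log2 change was -0.31 ± 0.21 (SE; adjusted p = 0.395). Hlf (ENSRNOG00000002456, chromosome 10, 77840568 to 77918191, minus strand) stood at 21.6, 60.1 and 55.4 FPKM in saline and at 11.7, 27.6 and 30.0 FPKM in CFA. Saline library 1 lay between the CFA libraries, so the groups overlapped. The log2 change of Hlf was -0.93 ± 0.49 (SE; 95% interval -2.12 to 0.26; adjusted p = 0.312).

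Npas2 (ENSRNOG00000013408, chromosome 9, 45901741 to 46081880, plus strand), the forebrain relative of Clock, stood at 12.1, 17.8 and 12.4 FPKM in thalamus saline and at 3.97, 8.90 and 8.68 FPKM in thalamus CFA. Every CFA library was below every saline library. Npas2 had a log2 change of -0.93 ± 0.30 (SE; 95% interval -1.66 to -0.21), which did not pass after adjustment (unadjusted p = 0.0196, adjusted p = 0.171). Of the 10 genes, Npas2 and Hlf had estimates at least as far from 0 as that of Per1 and larger standard errors.

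**Figure D3:**
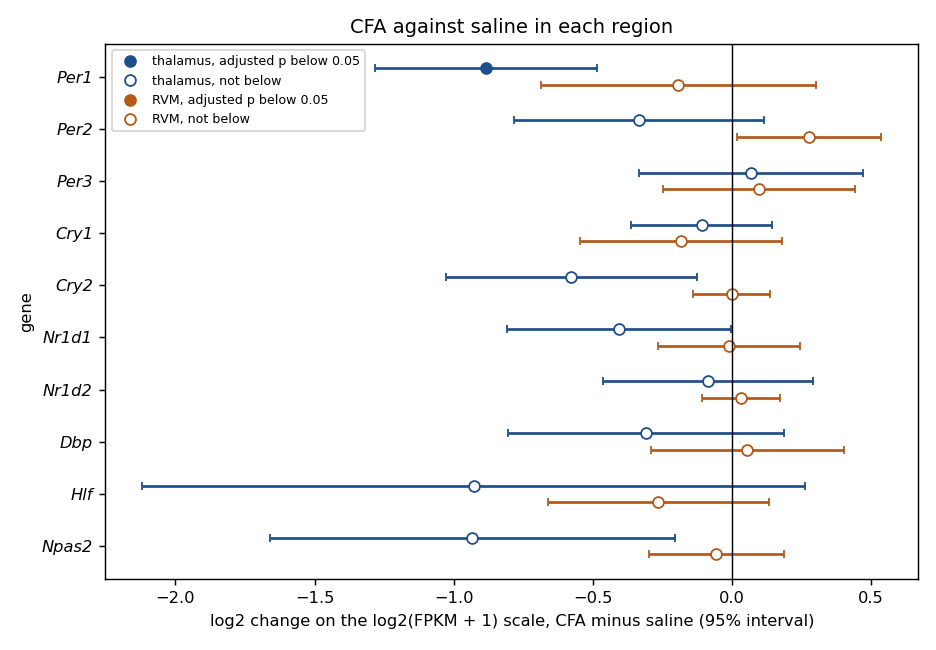
Log2 change of each clock gene (y axis), CFA minus saline, on the log2(FPKM + 1) scale (x axis) in thalamus (blue) and RVM (orange), from 3 against 3 libraries. Points are estimates, bars are 95% intervals and a filled point has an adjusted p below 0.05. Per1 in thalamus, at -0.88, is the only filled point.

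Leaving out 1 library moved several estimates that did not pass by a wide margin. It took Hlf from -0.52 (without CFA library 1) to -1.39 (without saline library 1), Npas2 from -0.61 (without CFA library 1) to -1.10 (without CFA library 2), Nr1d1 from -0.24 (without CFA library 1) to -0.51 (without CFA library 3), and Dbp from -0.08 (without CFA library 1) to -0.49 (without CFA library 3). Per2 ran from -0.19 (without saline library 1) to -0.51 (without saline library 3) and Cry2 from -0.42 (without CFA library 1) to -0.68 (without saline library 1). All stayed below 0.

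Single libraries were low or high for many of the clock genes at once. Thalamus CFA library 1 held the lowest value of the 6 thalamus libraries for 7 of the 10 genes (Cry1, Cry2, Nr1d1, Nr1d2, Dbp, Hlf and Npas2), and saline library 2 held the highest for 4 (Cry2, Nr1d1, Hlf and Npas2). CFA library 1 also had the lowest sum of thalamic neuron markers and saline library 2 the highest. In order of that sum (CFA 1, saline 1, CFA 3, CFA 2, saline 3, saline 2), Hlf stood at 11.7, 21.6, 30.0, 27.6, 55.4 and 60.1 FPKM. In the same order Npas2 stood at 3.97, 12.1, 8.68, 8.90, 12.4 and 17.8 FPKM and Cry2 at 20.4, 33.2, 28.2, 29.1, 36.6 and 47.5 FPKM. Per1 was at 8.36, 17.5, 6.71, 10.7, 15.0 and 16.9 FPKM in that order. Hlf followed the order of the marker sum apart from 1 neighbouring pair. For Npas2, Cry2 and Per1, saline library 1 stood above CFA libraries 2 and 3, which had higher marker sums. The part of tissue content in these orders was not tested.

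Neuronal markers had lower estimates in thalamus CFA. The log2 changes of the 10 thalamic neuron markers were all negative (median -1.06) and 0 of 10 passed. Those of the 12 general neuron markers were all negative as well (median -0.49) and 0 of 12 passed. Of all 14722 genes tested, 8905 had negative changes (median -0.08) and 0.272% passed as lower. The general neuron markers summed to 2483 to 3609 FPKM in saline and 1659 to 2519 FPKM in CFA. Of the microglial markers 9 of 10 passed as higher in CFA, where 565 of the 14722 genes tested did. The part of any of these in the clock gene values was not tested.

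**Figure D4:**
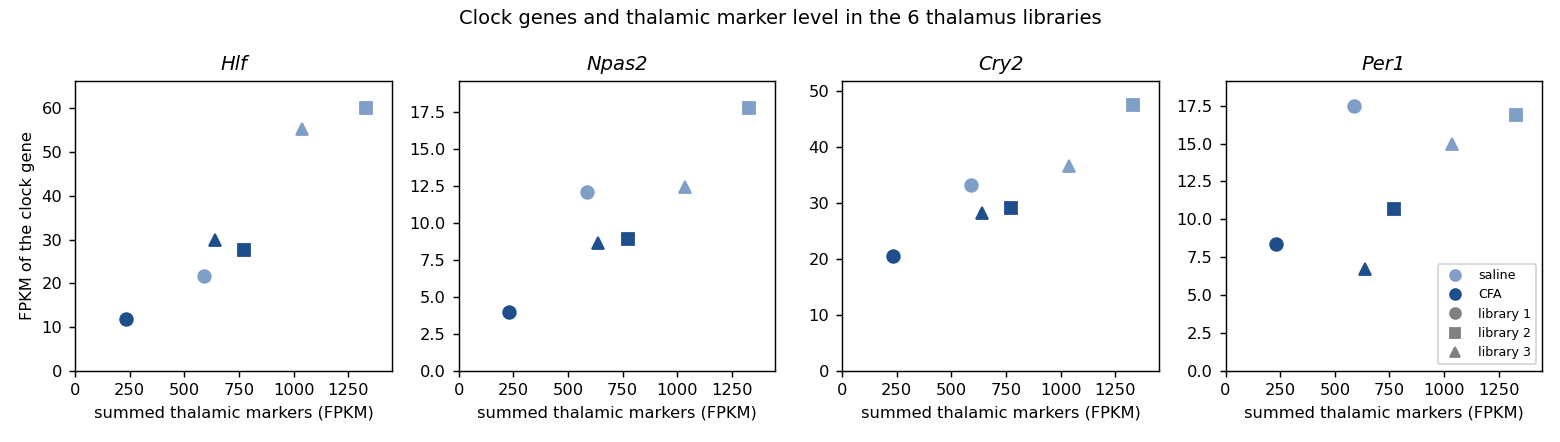
FPKM of Hlf, Npas2, Cry2 and Per1 (y axes) against the summed FPKM of 10 thalamic neuron markers (x axis) in the 6 thalamus libraries, with saline in light blue and CFA in dark blue, 1 symbol shape per library number. Hlf runs from 11.7 FPKM at a sum of 233 to 60.1 FPKM at 1331, and Per1 in saline library 1 is 17.5 FPKM at a sum of 588.

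In the RVM no clock gene passed between CFA and saline. The count was 0 of 10, where 0% of the 14289 genes tested passed (limma), although 2030 genes had an unadjusted p below 0.05, 1 clock gene among them. The median log2 change of the 10 genes was -0.01, against -0.02 for all genes tested. No clock gene lay with all CFA libraries below all saline libraries, as 12.5% of all genes did, and 1 (Per2) lay with all of them above, as 7.27% did. With limma-voom on the recovered reads 0 of the 10 passed as well. Without RVM CFA library 2, which had the lowest microglial marker sum of its group, 484 genes passed and 0 of them were among the 10. Of the 8 oligodendrocyte markers 0 passed and all had negative estimates in RVM (median -0.45), with sums of 23142 to 26338 FPKM in saline and 17164 to 18118 FPKM in CFA, and their part in the clock gene values was not tested.

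Per2 stood at 1.55, 1.81 and 1.59 FPKM in RVM saline and at 2.11, 2.32 and 2.20 FPKM in RVM CFA. All 3 CFA libraries were above all saline libraries. The log2 change of Per2 was 0.28 ± 0.11 (SE; 95% interval 0.02 to 0.54; unadjusted p = 0.0389, adjusted p = 0.325). Per1, the gene that passed in the thalamus, was at 7.47, 8.92 and 5.01 FPKM in RVM saline and at 5.30, 7.49 and 5.32 FPKM in RVM CFA. These groups overlapped and the log2 change of Per1 was -0.19 ± 0.21 (SE; 95% interval -0.69 to 0.30; adjusted p = 0.735). Per3, at 2.49, 3.0 and 3.68 FPKM in saline and 2.89, 3.86 and 3.22 FPKM in CFA, overlapped between groups too, with a log2 change of 0.10 ± 0.14 (SE).

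For the other repressors and the output genes of the loop, groups overlapped in RVM. Cry2 stood at 23.3, 23.9 and 23.2 FPKM in saline and at 22.9, 24.8 and 22.6 FPKM in CFA, and its 95% interval of -0.14 to 0.14 was the narrowest of the 10. Cry1 was at 6.07, 6.67 and 5.20 FPKM in saline and 3.99, 5.46 and 6.12 FPKM in CFA. Here the libraries spread widely and overlapped, with a log2 change of -0.18 ± 0.15 (SE). Nr1d1 stood at 9.55, 8.18 and 11.0 FPKM in saline and 8.88, 9.95 and 9.47 FPKM in CFA, and Nr1d2 at 19.5, 20.6 and 21.6 FPKM in saline and 20.6, 21.2 and 21.4 FPKM in CFA. For both receptors the CFA libraries lay within the range of the saline libraries, with 95% intervals of -0.27 to 0.24 for Nr1d1 and -0.11 to 0.17 for Nr1d2.

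Dbp was at 34.9, 43.1 and 53.3 FPKM in RVM saline and at 41.8, 45.1 and 47.9 FPKM in RVM CFA, which again lay inside the saline range (95% interval -0.29 to 0.40). Hlf was at 5.84, 6.54 and 9.65 FPKM in saline and 6.0, 6.13 and 5.34 FPKM in CFA. Saline library 3 stood above the other 5, and the log2 change of Hlf was -0.27 ± 0.17 (SE; adjusted p = 0.524). Npas2 was at 3.64, 2.94 and 3.02 FPKM in saline and at 3.01, 3.04 and 3.02 FPKM in CFA. The CFA libraries were almost equal and within the saline range, and the 95% interval of the log2 change was -0.30 to 0.19.

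The difference of the CFA effects between the regions was tested as an interaction over all 12 libraries. Of the 10 clock genes 0 passed, where 0% of 13738 genes passed (limma), with 1560 genes at an unadjusted p below 0.05. With limma-voom on the recovered reads 0 of the 10 passed. Of the 10 estimates 9 were negative, meaning a lower change in thalamus than in RVM, with a median of -0.49 against -0.05 for all genes tested. Those with an unadjusted p below 0.05 were Npas2 at -0.88 ± 0.34 (SE; adjusted p = 0.395), Per1 at -0.69 ± 0.29 (adjusted p = 0.415), Per2 at -0.61 ± 0.21 (adjusted p = 0.382) and Cry2 at -0.58 ± 0.20 (adjusted p = 0.382). The fall of Per1 in thalamus was therefore not shown to differ from its change in RVM. The unadjusted 95% interval of that difference ran from -1.32 to -0.06.

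The regions were next compared within each treatment. In the saline libraries 8 of the 10 clock genes were higher in thalamus than in RVM and 0 were lower. Of the 14396 genes tested 45.3% passed in either direction and 22.6% passed as higher in thalamus. The largest difference was that of Hlf, at 2.38 ± 0.39 log2 units (SE; adjusted p = 0.00372), from means of 45.7 ± 21.0 and 7.34 ± 2.03 FPKM (SD, n = 3 each). Npas2 followed at 1.83 ± 0.16 (SE; adjusted p = 0.000383), Nr1d1 at 1.40 ± 0.13 (adjusted p = 0.000435), Per2 at 1.36 ± 0.18 and Per1 at 1.13 ± 0.19. Dbp, at 0.83 ± 0.15, Cry2, at 0.70 ± 0.13, and Cry1, at 0.35 ± 0.10 (adjusted p = 0.0296), passed as well. The 2 that did not pass were Per3, at 0.23 ± 0.13 (95% interval -0.09 to 0.55; adjusted p = 0.206), and Nr1d2, at 0.21 ± 0.09 (95% interval -0.01 to 0.42; adjusted p = 0.103).

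Markers of other cell types differed between the regions too. Of the oligodendrocyte markers 8 of 8 passed as lower in thalamus (median -1.68), with sums of 4944 to 7715 FPKM in thalamus saline and 23142 to 26338 FPKM in RVM saline, and of the astrocyte markers 5 of 10 passed as lower and 0 as higher. Of the general neuron markers 6 of 12 passed as higher and 4 as lower in thalamus. Of all 14396 genes tested in saline, 3250 passed as higher in thalamus and 3273 as lower. In the CFA libraries 8 of 8 oligodendrocyte markers passed as lower in thalamus (median -1.44), where 2674 of the 14787 genes tested did. The oligodendrocyte markers summed to 4814 to 5677 FPKM in thalamus CFA and 17164 to 18118 FPKM in RVM CFA. The part of any of these markers in the clock gene differences was not tested.

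Within families some genes passed and others did not, and the difference between family members was not tested. Of the REV-ERB pair, Nr1d1 was at 26.8 ± 2.97 FPKM in thalamus and 9.56 ± 1.39 FPKM in RVM (SD) and Nr1d2 at 24.0 ± 2.27 and 20.6 ± 1.03 FPKM. Of the period genes, Per3 was at 3.72 ± 0.210 and 3.06 ± 0.594 FPKM. Cry1 missed the threshold in 5 of 6 fits that left out a library, with adjusted p = 0.0505, 0.0631 and 0.0756 without thalamus saline library 1, 2 or 3 and 0.0757 and 0.0803 without RVM saline library 1 or 3, and passed at 0.0316 without RVM saline library 2. Cry1 also missed it with no filter (adjusted p = 0.0548), quantile normalization (0.0792) and all 12 libraries in a single model (0.0586). Nr1d2 passed at 0.28 with adjusted p = 0.0199 without thalamus saline library 1. The share of genes higher in thalamus depends on scaling, with 3250 higher and 3273 lower as deposited against 4559 higher and 2013 lower after rescaling each library to the same FPKM total, which moved the median of all genes from -0.02 to 0.14. Under that rescaling 9 of the 10 clock genes were higher in thalamus, Nr1d2 being added, and 0 lower.

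In the CFA libraries 4 of the 10 clock genes were higher in thalamus and 0 lower, where 33.0% of 14787 genes passed in either direction and 14.9% as higher. These were Hlf at 1.72 ± 0.33 (SE; adjusted p = 0.0106), Nr1d1 at 1.00 ± 0.15 (adjusted p = 0.00498), Npas2 at 0.96 ± 0.27 (adjusted p = 0.0373) and Per2 at 0.75 ± 0.12 (adjusted p = 0.00603). The CFA means behind them were 23.1 ± 9.92 and 5.82 ± 0.422 FPKM for Hlf, 20.1 ± 3.94 and 9.43 ± 0.538 FPKM for Nr1d1, 7.18 ± 2.79 and 3.03 ± 0.0173 FPKM for Npas2 and 4.42 ± 0.512 and 2.21 ± 0.103 FPKM for Per2 (SD, thalamus then RVM). Per1 was at 0.44 ± 0.19 (adjusted p = 0.127), Dbp at 0.46 ± 0.20 (adjusted p = 0.126), Cry1 at 0.42 ± 0.16 (adjusted p = 0.0880), Per3 at 0.20 ± 0.18, Cry2 at 0.12 ± 0.14 (95% interval -0.22 to 0.47) and Nr1d2 at 0.09 ± 0.14. The saline and CFA region comparisons use different libraries, and the test of the difference between them is the interaction above, which no clock gene passed.

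The count in CFA moved with scaling, tool and library. With limma-voom on the recovered reads 7 of the 10 were higher in thalamus. After rescaling to the same FPKM total 9 of the 10 were higher in thalamus, with all genes split into 5083 higher and 1025 lower in place of 2206 and 2674 and their median moved from -0.00 to 0.29. Without thalamus CFA library 1 the count was 7, with Cry2 at 0.28 (adjusted p = 0.0373), Nr1d2 at 0.24 (adjusted p = 0.0458) and Dbp at 0.69 (adjusted p = 0.00642) added. Npas2 dropped out when any other library of the comparison was left out, with adjusted p = 0.108 and 0.0950 without thalamus CFA library 2 or 3 and 0.0969, 0.0958 and 0.101 without RVM CFA library 1, 2 or 3.

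**Figure D5:**
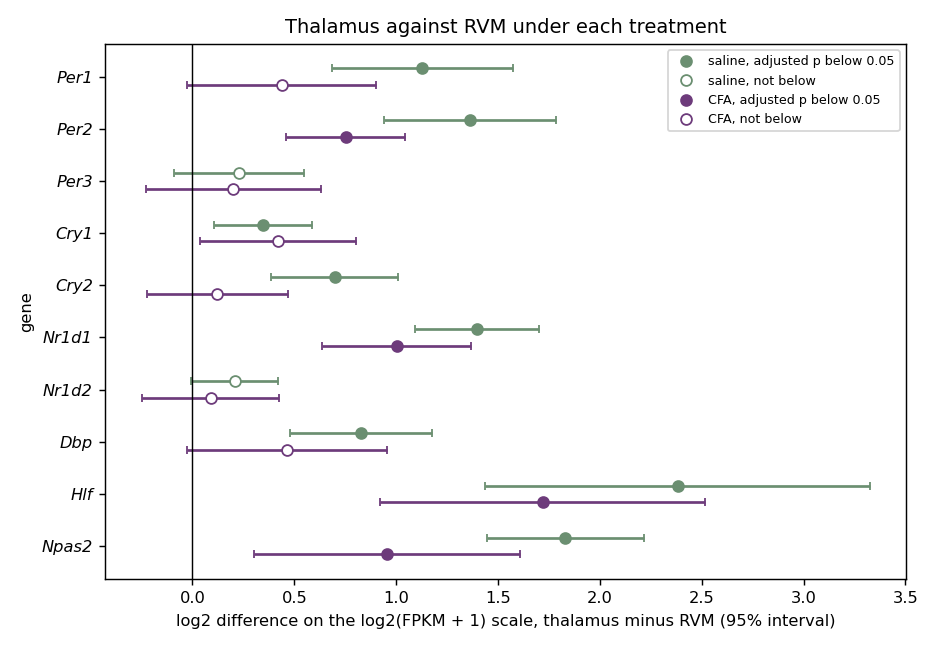
Log2 difference of each clock gene (y axis), thalamus minus RVM, on the log2(FPKM + 1) scale (x axis), in the saline libraries (green) and in the CFA libraries (purple), 3 against 3 libraries each. Points are estimates, bars are 95% intervals and filled points have an adjusted p below 0.05. In saline 8 points are filled, up to 2.38 for Hlf, and in CFA 4 are filled.

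The order of the group means differed among the genes. Thalamus saline was highest for 9 of the 10, and Per3 was the exception, with thalamus CFA at 4.01 ± 0.971 FPKM (SD) and neighbouring groups that all overlapped. For Npas2 and Nr1d1 thalamus saline, thalamus CFA and the RVM groups formed 3 separate steps, with the RVM groups overlapping each other. For Per1 and Cry2 thalamus saline stood apart and the other groups overlapped in turn. Hlf overlapped between the thalamus groups and again between the RVM groups, with a gap between the regions. Per2 was the only one whose RVM groups were apart, and the neighbouring groups of Cry1, Nr1d2 and Dbp overlapped all along the order.

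The windows just upstream of the start sites were read for the letters that clock factors are known to bind. The 8 genes with windows are not the 8 that passed as higher in saline thalamus. Cry1 and Hlf passed and had no window, and Per3 and Nr1d2 had windows and did not pass. Windows of 250 bases before the annotated start, from RefSeq on build GRCr8, were given for 8 of the 10 genes, with a second window for Nr1d1, and Cry1 and Hlf are named only. The motifs searched on both strands were the E-box CACGTG, the related E'-box CACGTT, the D-box TTATGTAA or TTACGTAA, the ROR element TAGGTCA and the cAMP response element TGACGTCA. No pair of matches overlapped. The 4 windows with a match are shown 5′ to 3′ along the gene's strand, with the matched letters in capitals.
Per2, chr9:99496994-99497243, minus strand: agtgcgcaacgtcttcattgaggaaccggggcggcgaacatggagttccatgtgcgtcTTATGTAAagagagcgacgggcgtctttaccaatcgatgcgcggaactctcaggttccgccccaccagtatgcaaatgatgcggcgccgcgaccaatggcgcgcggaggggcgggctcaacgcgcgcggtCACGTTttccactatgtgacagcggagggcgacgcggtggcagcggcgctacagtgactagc
Cry2, chr3:98860438-98860687, minus strand: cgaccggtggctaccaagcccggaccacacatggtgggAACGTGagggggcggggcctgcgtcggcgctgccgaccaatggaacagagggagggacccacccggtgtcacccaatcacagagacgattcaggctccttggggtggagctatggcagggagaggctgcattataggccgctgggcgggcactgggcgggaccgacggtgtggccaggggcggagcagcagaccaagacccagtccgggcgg
Nr1d1, first window, chr10:84231813-84232062, minus strand: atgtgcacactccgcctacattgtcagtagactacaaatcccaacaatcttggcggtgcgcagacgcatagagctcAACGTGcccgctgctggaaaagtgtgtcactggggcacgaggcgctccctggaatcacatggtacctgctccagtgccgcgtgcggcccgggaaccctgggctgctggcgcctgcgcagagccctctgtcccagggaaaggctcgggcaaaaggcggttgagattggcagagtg
Nr1d1, second window, chr10:84229455-84229704, minus strand: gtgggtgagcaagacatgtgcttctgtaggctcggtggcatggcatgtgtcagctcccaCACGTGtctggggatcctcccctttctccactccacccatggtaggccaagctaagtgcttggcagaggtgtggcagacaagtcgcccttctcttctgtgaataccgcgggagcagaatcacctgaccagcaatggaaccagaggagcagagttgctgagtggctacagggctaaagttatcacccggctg

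In Per2 the D-box begins 192 bases and the E'-box 62 bases before the start. Cry2 holds an E'-box 212 bases before its start. The first Nr1d1 window holds an E'-box at 174 bases and the second an E-box at 191 bases before the respective start. The windows of Per1, Per3, Nr1d2, Dbp and Npas2 hold none of the 5 motifs, which says only that these letters are not in these windows. Of 33469 such windows over all genes 5.593% hold the E-box, 4.069% the E'-box, 0.932% the D-box, 2.256% the ROR element and 1.587% the cAMP response element. The E'-box, found in 3 of 8 clock genes, was the motif they held most often. That count is by gene, with a second window for Nr1d1, whereas the shares are by window. The matches are a description and mark no binding.

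The rest of the clock was followed through 22 further genes, of which 19 were expressed highly enough to be tested. In thalamus 1 of the 19 passed as higher in CFA and 0 as lower, and 17 of the 19 log2 changes were negative with a median of -0.18. Of all 14722 genes tested, 565 passed as higher and 8905 had negative changes, with a median of -0.08. The one that passed was Nampt, the rate-limiting enzyme of NAD salvage and a target of CLOCK and BMAL1. Nampt stood at 17.8, 18.2 and 19.1 FPKM in saline and 30.9, 32.4 and 25.0 FPKM in CFA, a log2 change of 0.65 ± 0.12 (SE; adjusted p = 0.0358). Its direction was opposite to that of Per1, and Nampt was not followed through the alternative fits. Arntl2 and Timeless were among those below the filter.

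Arntl, which encodes the shared partner of CLOCK and NPAS2, stood at 11.4, 16.2 and 12.9 FPKM in thalamus saline and at 7.22, 9.92 and 8.67 FPKM in thalamus CFA. The groups did not overlap, and the log2 change of Arntl was -0.59 ± 0.16 (SE; unadjusted p = 0.0101, adjusted p = 0.127). Clock was at 9.11, 9.60 and 9.66 FPKM in saline and 7.61, 8.73 and 8.48 FPKM in CFA, a log2 change of -0.17 ± 0.09 (adjusted p = 0.313). Arntl, encoding the activator, and Per1 and Nr1d1, encoding repressors of the loop, had negative estimates in thalamus, as did 8905 of the 14722 genes tested. Arntl and Nr1d1 did not pass. Rora, an activator of Arntl, had a log2 change of -0.56 ± 0.42 (adjusted p = 0.446), with 2.89, 6.97 and 7.08 FPKM in saline and 1.56, 4.11 and 4.99 FPKM in CFA.

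Among the remaining regulators in thalamus, Bhlhe40, a repressor at E-boxes, had a log2 change of -0.51 ± 0.19 (SE; adjusted p = 0.208), and its relative Bhlhe41 one of 0.26 ± 0.11 (adjusted p = 0.242). Tef, the third bZIP factor beside Dbp and Hlf, was at -0.14 ± 0.11 (adjusted p = 0.448), and Nfil3, which opposes them at D-boxes, at -0.34 ± 0.19 (adjusted p = 0.332). Ciart, an inhibitor of CLOCK and BMAL1, was at -0.32 ± 0.20 (adjusted p = 0.358). The kinases that mark PER proteins for degradation were at -0.13 ± 0.08 for Csnk1d and -0.17 ± 0.14 for Csnk1e. None of these passed.

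In RVM 0 of the 19 further clock genes passed between CFA and saline, where 0% of the 14289 genes tested did. Their median was -0.02, as was that of all genes tested. Those with the smallest p were Bhlhe40 at 0.21 ± 0.08 (SE; adjusted p = 0.298) and Nfil3 at -0.46 ± 0.17 (adjusted p = 0.301). Arntl was at -0.20 ± 0.10 (adjusted p = 0.404), Clock at 0.06 ± 0.07, Rora at -0.06 ± 0.17, Tef at -0.02 ± 0.08, Ciart at -0.08 ± 0.15 and Bhlhe41 at 0.16 ± 0.09. Csnk1d was at -0.06 ± 0.06, Csnk1e at 0.08 ± 0.07 and Nampt at 0.30 ± 0.17 (adjusted p = 0.489). In the interaction 0 of the 19 passed, where 0% of the 13738 genes tested did, with a median of -0.20 against -0.05 for all genes tested.

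Between the regions in saline, 14 of the 19 were higher and 2 lower in thalamus, with a median of 0.49, where 22.6% of all genes tested passed as higher and 45.3% in either direction. Arntl was higher at 0.77 ± 0.13 (SE; adjusted p = 0.00408), Rora at 1.09 ± 0.30, Bhlhe40 at 1.32 ± 0.11, Ciart at 0.71 ± 0.19, Tef at 0.69 ± 0.07, Csnk1e at 0.65 ± 0.08 and Clock at 0.32 ± 0.08 (adjusted p = 0.0189). Nampt, at -0.44 ± 0.07 (adjusted p = 0.00300), was lower in thalamus. Activators, repressors and output genes of the loop alike were thus mostly higher in saline thalamus. Between the regions in CFA 5 of the 19 passed as higher and 1 as lower in thalamus, with a median of 0.39, where 14.9% of all genes passed as higher and 33.0% in either direction.

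Because Per1 also answers to glucocorticoids and to neuronal activity, genes known for those responses were read beside it. Of 10 glucocorticoid-induced genes in thalamus 1 passed, where 4.11% of all genes tested did. It was Nfkbia, at 0.56 ± 0.10 (SE; adjusted p = 0.0356), which is also a target of NF-kB. The others did not pass, 8 of the 10 were negative and the median was -0.27, with Ddit4 at -0.54 ± 0.14 (adjusted p = 0.111), Pdk4 at -0.81 ± 0.27 (adjusted p = 0.172) and Klf9 at -0.41 ± 0.14 (adjusted p = 0.185). Fkbp5 went the other way, with overlapping groups at 12.6, 7.51 and 8.65 FPKM in saline and 15.9, 11.7 and 10.3 FPKM in CFA. Of 10 immediate early genes tested in thalamus 0 passed, 6 were negative and the median was -0.52. Dusp1, a phosphatase induced by many stimuli, came closest at -1.25 ± 0.25 (adjusted p = 0.0516), from 46.5, 67.4 and 42.9 FPKM in saline to 15.3, 27.4 and 22.1 FPKM in CFA. Fosb was at -0.93 ± 0.28 (adjusted p = 0.149), Fos at -0.85 ± 0.41 (adjusted p = 0.281) and Npas4 at -0.74 ± 0.37 (adjusted p = 0.289). Of the 4 with positive estimates, Junb overlapped between groups, at 32.2, 18.4 and 10.5 FPKM in saline and 35.6, 29.4 and 19.1 FPKM in CFA. In RVM 0 of 10 glucocorticoid-induced genes and 0 of 8 immediate early genes passed, where 0% of the 14289 genes tested did. The part of either list in the Per1 values was not tested.

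The genes whose level followed each clock gene most closely from library to library were found by Pearson correlation of log2(FPKM + 1) over the 12 libraries after each group's mean was subtracted, among 11892 genes. All values of a library share its depth, scaling and tissue content, and the highest of so many correlations is high by selection, so they are given as a description. Per1 was followed most closely by Mboat2 (r = 0.944), Cplane1 (r = 0.932) and Ccdc117 (r = 0.921). Per2 was followed by Med9 (r = 0.963), Trank1 (r = 0.939) and Rpgrip1l (r = 0.932), and Per3 by Pemt (r = 0.915), Zfpl1 (r = 0.900) and Add2 (r = 0.898). No gene of the clock lists was among them.

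For Cry1 the nearest were Mybbp1a (r = 0.963), Gnptg (r = 0.904) and Bola2 (r = 0.897), and for Cry2 they were Kidins220 (r = 0.984), Fbxw11 (r = 0.981) and Il12rb2 (r = 0.981). Nr1d1 went with Mrpl49 (r = 0.961) and Rcbtb1 (r = 0.961), and Nr1d2 with Igsf21 (r = 0.971), Ica1l (r = 0.968) and Cxxc4 (r = 0.966). For Dbp they were Smim13 (r = 0.945), H2afy2 (r = 0.931) and B4galt7 (r = 0.928), and for Hlf Cdk18 (r = 0.973), Apba1 (r = 0.972) and Gpr63 (r = 0.972). Npas2 went with Hdac5 (r = 0.984), Gbx2 (r = 0.977) and Dnajc5 (r = 0.966). Gbx2, a transcription factor of developing thalamic neurons, is one of the 10 thalamic neuron markers, and it stood at 23.0, 53.2 and 24.9 FPKM in thalamus saline and 6.03, 27.1 and 20.2 FPKM in thalamus CFA, lowest and highest in the same libraries as Npas2.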

How the data were processed

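Total RNA libraries from thalamus and RVM of rats were made with an Illumina TruSeq kit, per the labels' protocols. The authors deposited FPKM values for 34525 genes, with gene length and coordinates, per the file headers. Aligner, counting tool, genome build and strand setting: not given in the sources used here. Reads shared with antisense or overlapping genes therefore cannot be told apart. FPKM times gene length gave whole reads for 100% of values within a tolerance of 0.01, hence 14.94 to 19.24 M reads per library. The deposited FPKM carries a further scaling between libraries of 0.933 to 1.17 (1.11 to 1.17 in thalamus CFA) by a method the sources used here do not name. The upper limit of a gene listed at 0 is 3 reads, for counting error only. All 12 libraries are used, and 0 columns lacked a sample.

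limma 3.58.1 under R 4.3.3 was run on log2(FPKM + 1) with a trended empirical Bayes prior. Genes averaging 1 FPKM or more in the libraries compared (in each region for the interaction) were tested. Differences understate those of low genes. A gene was called at a Benjamini-Hochberg adjusted p below 0.05 over all genes tested, two-sided, with 4 residual degrees of freedom between 2 groups and 8 for the interaction. The 10 clock genes and the gene lists were chosen with earlier results of these data known. The 10 clock genes are always named. Of 22 further clock genes, those that passed in a CFA comparison and 10 regulators are named, with Arntl2 and Timeless added after their values were seen. Of other lists, up to 4 genes with the smallest p are named, with the level of single markers given as checks of tissue. Fkbp5 and Junb were added after their values were seen. For each clock gene, the 3 genes most like it are named, and some genes that these rules took are not reported here. The alternatives tried were a pseudocount of 0.1, no filter or one at 5 FPKM, 3 other scalings, weights for library quality, a robust empirical Bayes prior, a replicate block, limma-voom on recovered reads, 1 model over all 12 libraries and leaving libraries out. Fits were tested on simulated data with the same spread setting for every gene and no differences in tissue content between libraries, unlike these data.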

Additional observations from a re-analysis of the deposited data

Results flagged for a closer look

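Bhlhe40, a clock repressor that binds E-boxes, was flagged because its libraries separated in opposite directions in the regions. It was at 23.8, 31.1 and 25.6 FPKM in thalamus saline and 13.9, 22.0 and 20.4 FPKM in thalamus CFA, every CFA library below every saline library. In RVM it was at 10.2, 9.65 and 10.3 FPKM in saline and 11.6, 11.0 and 12.8 FPKM in CFA, every CFA library above every saline library. Of all genes tested, 16.8% lay apart in this way as lower in thalamus CFA and 7.27% as higher in RVM CFA. The difference of the Bhlhe40 changes, thalamus minus RVM, was -0.72 ± 0.22 on the log2 scale (SE) and did not pass (limma, adjusted p = 0.358). Bhlhe40 was picked from the clock genes for this separation, so the size of that difference is partly selected.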

How the results depend on the processing

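Of the thalamus calls among the 10 clock genes (1 as reported, Per1, with 605 genes passing in all), 0 passed with no filter on low genes, with rescaling to the same FPKM total and with limma-voom. The count was 3 with all 12 libraries in a single model (Per1, Cry2 with adjusted p = 0.0282 and Npas2 with adjusted p = 0.0309; 1932 genes in all), and 0 to 1 when a library was left out. Without saline 1 and CFA 1 together it was 1, Hlf, at -0.98 with adjusted p = 0.0162, while Per1 was at -0.83 with adjusted p = 0.112. With the replicate number as a block it was 3, with Per1, Cry2 (adjusted p = 0.0390) and Hlf (adjusted p = 0.0128) passing and 1338 genes in all. Same-numbered saline and CFA thalamus libraries deviated together with r = 0.364, 0.0634 and 0.267 over 14671 genes. Differently numbered ones ranged from r = -0.448 (saline 1 with CFA 3) to 0.312 (saline 2 with CFA 3). Same-numbered thalamus and RVM libraries of the CFA groups did so with r = 0.203, 0.0756 and -0.0371. In no pairing of groups did every pair exceed 0.1. These values cannot settle whether samples were paired, and the fits as reported treat them as unpaired. Clock gene calls in RVM and in the interaction were 0 under every alternative run. In saline the count of genes higher in thalamus was 7 to 9 over the alternatives other than leaving out a library, and 7 to 8 when a library was left out. In CFA, where it was 4 as reported, it was 9 with rescaling to the same FPKM total, 7 with limma-voom, and 3 to 7 when a library was left out, the 7 being without thalamus CFA library 1.

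Changes of sign were confined, among the results and alternatives run, to estimates that passed in neither fit. In thalamus, rescaling to the same FPKM total gave Cry1 0.038 and Nr1d2 0.075, limma-voom gave Cry1 0.051 and Nr1d2 0.090, quantile normalization gave Per3 -0.054 and Nr1d2 0.0077, quality weights gave Per3 -0.052, leaving out CFA 1 and 2 gave Nr1d2 0.11 and Dbp 0.052, and leaving out saline 1 and CFA 1 gave Per3 -0.088. Leaving out single libraries spanned -0.064 to 0.22 for Per3 and -0.18 to 0.069 for Nr1d2. In RVM, the FPKM total gave Cry2 0.0024, median-of-ratios scaling gave Cry2 0.021 and Nr1d1 0.010, quantile normalization gave Cry2 0.015, and limma-voom gave Cry2 0.047 and Nr1d1 0.027. Single libraries there spanned -0.0069 to 0.20 for Per3, -0.0019 to 0.067 for Nr1d2, -0.094 to 0.20 for Dbp, -0.10 to 0.017 for Npas2, -0.042 to 0.025 for Cry2 and -0.11 to 0.083 for Nr1d1. In the interaction, the FPKM total gave Per3 0.11 and Nr1d2 0.038, limma-voom gave Per3 0.087 and Nr1d2 0.0074, and leaving out CFA 1 and 2 gave Per3 0.012 and Nr1d2 0.078, with single libraries spanning -0.16 to 0.12 for Per3, -0.22 to 0.036 for Nr1d2 and -0.073 to 0.18 for Cry1. Between regions in CFA, single libraries spanned -0.0092 to 0.24 for Nr1d2. Over all gene-level estimates and alternatives, 847 kept their direction and side of the threshold, 25 came to pass, 27 no longer passed and 40 changed sign. The causes were not tested. Rescaling to the same total moved the median of all genes in thalamus from -0.08 to 0.07, and in the interaction from -0.05 to 0.10.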

Other observations

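Among immediate early genes in the saline libraries, 5 of 10 tested passed as higher in thalamus than in RVM and 0 as lower (limma), where 22.6% of all genes passed as higher. They had a median log2 difference of 0.91 over the 10 and a lowest value of -0.62. Those that passed included Fos, a transcription factor induced by neuronal activity, at 1.57 ± 0.23 (SE; adjusted p = 0.00240). In the CFA libraries 1 of 8 passed as higher, where 14.9% of all genes did. It was Egr1, at 1.59 ± 0.39 (SE; adjusted p = 0.0231).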
